A study of Mus musculus with 12 samples.

Results

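The mouse lysozymes Lyz1 and Lyz2 and 8 genes used as markers of macrophages, Cd68, Csf1r, Adgre1, Ptprc, Tyrobp, Itgam, Cd14 and Stab1, were followed across the 4 groups of sorted liver cancer organoid cells to see whether Lyz2 moved with the macrophage genes or alone. These 10 genes are 10 of the 47069 in the count table. Of the 16157 genes with enough reads to test, 7 were among them: Lyz1, Lyz2, Cd68, Ptprc, Tyrobp, Cd14 and Stab1. Csf1r, Adgre1 and Itgam fell below the filter. Lyz2 and Stab1 were chosen by their read counts in these same libraries, Lyz2 for its difference between untreated LGR5+ and LGR5- cells and Stab1 for its difference between 5-FU-treated and untreated LGR5+ cells. Their values in comparisons that share those libraries are therefore given as a description, with no test.

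The cells came from organoids grown from liver tumors of C57BL/6 Lgr5-DTR-GFP mice. There the Lgr5 promoter drives both GFP and DTR, the receptor for diphtheria toxin. Tumors had been induced with the carcinogen diethylnitrosamine (DEN). LGR5 is a receptor for R-spondins and a marker of adult stem cells in several epithelia. The 4 groups, of 3 libraries each, were untreated LGR5- cells, untreated LGR5+ cells, LGR5- cells treated with 5-FU (5-fluorouracil, a pyrimidine analog that blocks thymidylate synthesis and is built into RNA) and LGR5+ cells treated with 5-FU. All groups carried the same reporter allele, and none received diphtheria toxin as far as the labels state. The dose and duration of 5-FU for these cells are not given in the sources used here. Cells were sorted by GFP. The study's sorting method stained CD45, the product of Ptprc, to leave out leukocytes and used propidium iodide to leave out dead cells. Whether the 3 libraries of a group came from separate cultures or animals is not stated, so the tests measure only the spread between these libraries, which may be technical.

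Lysozymes cut the peptidoglycan of bacterial cell walls. The mouse has a pair of neighbouring genes of the same ancestry: Lyz2, or lysozyme M, is made by macrophages, neutrophils and alveolar type 2 cells of the lung, and Lyz1, or lysozyme P, is known from Paneth cells of the small intestine. In the liver, resident macrophages are called Kupffer cells. They depend on the receptor Csf1r and its ligands, and CD68, a heavily glycosylated protein of late endosomes and lysosomes, is among their usual stains.

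The sequences of Lyz1 and Lyz2 matter for the counts, because a read that fits both genes cannot be assigned. In the GRCm38 build with the GENCODE M21 annotation, both genes lie on chromosome 10 on the minus strand with 4 exons each, Lyz1 at chr10:117287797-117292868 and Lyz2 at chr10:117277331-117282321. The submitters' processing notes name the build mm8, so these positions describe the reference and not the counting. The coding sequences, 447 bases each with the stop codon, differed at 22 bases, an identity of 95.08%. The first 150 coding bases, which begin with the start codon, hold 14 of the 22 differences and are printed with these in capitals. They span the coding part of exon 1 (chr10:117292703-117292838 in Lyz1 and chr10:117282107-117282242 in Lyz2) and the start of exon 2 (chr10:117291180-117291193 and chr10:117280792-117280805).
Lyz1: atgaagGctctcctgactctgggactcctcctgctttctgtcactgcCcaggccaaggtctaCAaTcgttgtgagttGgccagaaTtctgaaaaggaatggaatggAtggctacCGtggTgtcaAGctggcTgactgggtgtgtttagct
Lyz2: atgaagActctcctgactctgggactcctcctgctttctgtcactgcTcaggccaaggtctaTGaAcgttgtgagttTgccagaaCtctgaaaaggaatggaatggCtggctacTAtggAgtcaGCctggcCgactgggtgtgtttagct

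Over whole transcripts of 1263 and 1316 bases the identity was 91.95%. Of all stretches of 50 bases, 16.1% in Lyz1 and 15.4% in Lyz2 occurred unchanged in the other gene. The share was 2.06% and 1.97% for stretches of 100 bases, and no stretch of 150 bases, the length of 1 read of the pair, was common to both. Most whole reads can thus be told apart by sequence, but how the authors' counting treated reads that fit both was not tested, and the split between the genes carries that uncertainty. The longest identical coding run was 118 bases. Upstream of the genes the resemblance was lower. The 201 bases below cover the same distance before the RefSeq start site of each gene (chr10:117292918-117293118 and chr10:117282322-117282522, GRCm38.p6, minus strand, from RefSeq promoter windows). Bases in capitals are those not identical in the alignment, which held 74.4% identical columns. Whether these bases bear on the expression of the genes was not tested.
Lyz1 upstream: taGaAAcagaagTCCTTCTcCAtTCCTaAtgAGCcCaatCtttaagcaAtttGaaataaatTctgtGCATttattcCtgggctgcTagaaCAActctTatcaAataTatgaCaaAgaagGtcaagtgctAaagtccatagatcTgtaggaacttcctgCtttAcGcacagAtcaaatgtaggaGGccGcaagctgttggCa
Lyz2 upstream: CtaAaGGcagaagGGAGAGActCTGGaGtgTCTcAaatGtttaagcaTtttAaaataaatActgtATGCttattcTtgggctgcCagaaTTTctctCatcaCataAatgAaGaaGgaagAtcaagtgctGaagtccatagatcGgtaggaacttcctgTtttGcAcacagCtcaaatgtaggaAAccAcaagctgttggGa

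The letters GAGGAA, a core of sites of the myeloid transcription factor PU.1, were searched on both strands in RefSeq windows around the start sites of 6 members: Lyz1, Lyz2, Cd68, Ptprc, Itgam and Stab1. They stood in 28.3% of all 32851 such windows. The Stab1 window and 1 of the Ptprc windows held 1 match, the Cd68 window 2 and the Itgam window 3. Those of Lyz1 and Lyz2 did not hold these letters, like most windows of all genes. Other forms of PU.1 sites were not searched, so whether PU.1 can bind these windows was not tested. Spi1, the gene of PU.1, had 0 to 2 reads in every library.

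Counted reads ranged from 13750591 to 19323514 per library, and 3 reads, the most that a count of 0 leaves possible, came to 0.165 to 0.220 CPM (reads per 1e6 counted, scaled by TMM). This limit, and the intervals given for shares, cover counting error only. Lgr5 itself, the gene of the sort, did not separate the populations. It stood at 28.8 ± 6.63 CPM in untreated LGR5- cells, 25.7 ± 2.12 CPM in untreated LGR5+ cells, 25.1 ± 9.50 CPM in 5-FU LGR5- cells and 27.0 ± 0.20 CPM in 5-FU LGR5+ cells (SD, n = 3). The names LGR5+ and LGR5- therefore stand for the labels of the sort throughout. The epithelial gene Epcam had 9193 to 26562 reads in each library. The hepatocyte markers were near absent for cells labelled as liver cancer: Alb had 2 to 33 reads, Hnf4a 0 to 2 and Ttr 0 to 1. The surfactant gene Sftpc, a defining marker of alveolar type 2 cells, had the highest mean of the marker genes examined, 7665 CPM over the 12 libraries. The LGR5- libraries numbered 3 stood apart, with 6.93% (untreated) and 6.44% (5-FU) of reads on mitochondrial genes against 1.47% to 3.08% in the other libraries, so results that rest on them are also given without them. In these bulk samples, fewer cells of a type and less RNA per cell cannot be told apart.

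Untreated LGR5- libraries 1, 2 and 3 held 166, 104 and 65 reads of Lyz2. In the untreated LGR5+ libraries there were 385, 419 and 190. With 5-FU the LGR5- libraries held 1266, 952 and 1340 Lyz2 reads and the LGR5+ libraries 1233, 1098 and 1303. All untreated LGR5+ libraries lay above all untreated LGR5- libraries, every 5-FU library lay above every untreated one, and the 5-FU groups overlapped. Between the untreated populations, 2.7% of all genes tested had every LGR5+ library above every LGR5- one. As means with SD (n = 3), Lyz2 stood at 6.46 ± 3.29 CPM in untreated LGR5- cells, 19.8 ± 7.51 CPM in untreated LGR5+ cells, 68.6 ± 7.91 CPM in 5-FU-treated LGR5+ cells and 76.2 ± 21.3 CPM in 5-FU-treated LGR5- cells. In this order, only the last pair of neighbours overlapped.

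**Figure D1:**
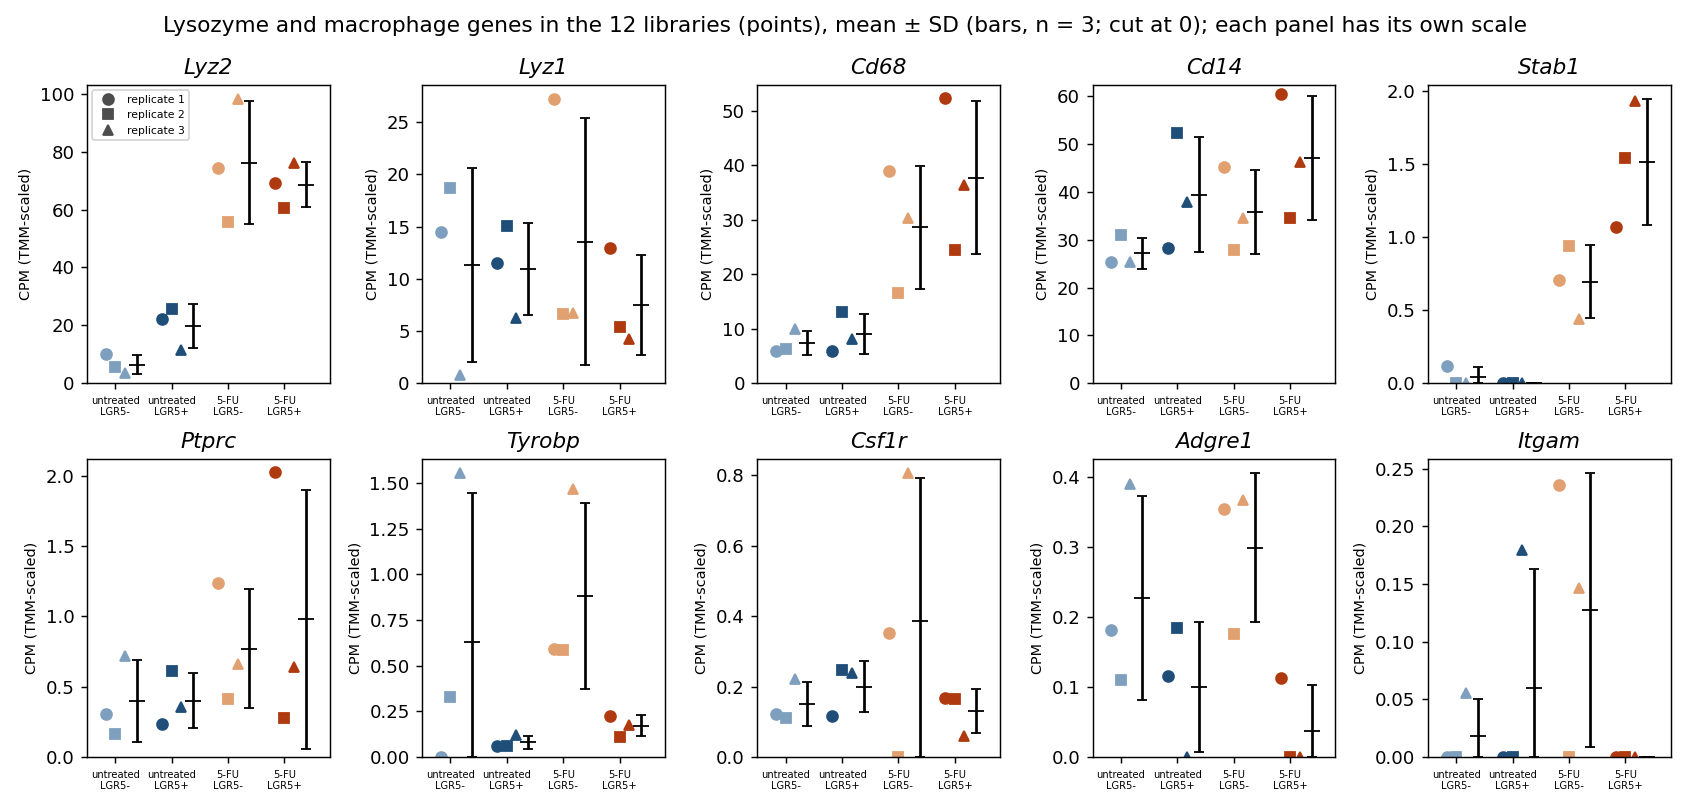
TMM-scaled CPM (linear axes from 0, 1 scale per gene) of the 10 genes in the 12 libraries, with mean and SD (n = 3) beside the points of each group. Lyz2 lay at 3.61 to 25.7 CPM in untreated and 55.7 to 98.3 CPM in 5-FU-treated libraries, whereas Csf1r, Adgre1 and Itgam stayed under 1 CPM in all.

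Fitted by edgeR, Lyz2 was higher in untreated LGR5+ than LGR5- cells by 1.62 on the log2 scale (SE 0.36), or 3.07-fold. Without the LGR5- libraries numbered 3 the value was 1.33 (SE 0.35). The library of lowest Lyz2, untreated LGR5- replicate 3 with 65 reads, is one of those left out. No such difference was detected after 5-FU, the only comparison of the populations whose libraries did not choose Lyz2. There the log2 difference, LGR5+ against LGR5-, was -0.15 (SE 0.33, 95% interval -0.86 to 0.56, edgeR quasi-likelihood test, Benjamini-Hochberg adjusted p = 0.844), and a two-sided exact permutation test on CPM gave p = 0.7, where 0.1 is the smallest that 3 against 3 can give. The sign was not stable: leaving out 5-FU LGR5- replicate 3 gave 0.04, and leaving out both LGR5- libraries numbered 3 gave 0.07.

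From untreated to 5-FU-treated cells, the Lyz2 difference was 3.56 (SE 0.37) in LGR5- cells, or 11.8-fold, and 1.79 (SE 0.34) in LGR5+ cells, or 3.47-fold. These comparisons share the untreated libraries that put Lyz2 on the list and carry no test. The difference between the responses, LGR5+ minus LGR5-, was -1.77 (SE 0.48). Without the LGR5- libraries numbered 3, the LGR5- value was 3.05 and the difference between responses -1.26.

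Lyz1, the closest relative of Lyz2, showed no detectable change in any comparison. Without 5-FU, its counts were 239, 340 and 15 (LGR5-) and 200, 245 and 104 (LGR5+). With 5-FU, LGR5- libraries held 463, 114 and 92 Lyz1 reads and LGR5+ libraries 230, 97 and 72. The groups overlapped in every comparison, and the highest and the lowest library were both LGR5- libraries. Means were 11.3 ± 9.32, 10.9 ± 4.45, 13.6 ± 11.9 and 7.49 ± 4.74 CPM (SD, n = 3) in untreated LGR5-, untreated LGR5+, 5-FU LGR5- and 5-FU LGR5+ cells. The log2 change with 5-FU was -0.54 (SE 0.91, edgeR adjusted p = 0.743) in LGR5+ cells and 0.26 (SE 0.90, edgeR adjusted p = 0.885) in LGR5- cells. The intervals were wide, from -2.58 to 1.49 and from -1.74 to 2.27, so changes of several-fold in Lyz1 were not detectable at this spread. The 5-FU LGR5- mean rested on replicate 1, at 27.2 CPM, with replicates 2 and 3 at 6.67 and 6.75 CPM. Between the 5-FU-treated populations the LGR5+ against LGR5- difference was -0.86 (SE 0.91, edgeR adjusted p = 0.659). With the replicate number as a block on only the 5-FU libraries, an alternative chosen after seeing the data, it was -0.79 (SE 0.20, edgeR adjusted p = 0.0542), and Lyz1 was lower in the LGR5+ library of each number.

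The make-up of the lysozyme reads was also compared. In untreated LGR5- cells, Lyz2 made up 41.0%, 23.4% and 81.2% of the reads of both genes, the last of them from 80 reads (95% exact binomial interval 71.0% to 89.1%). The untreated LGR5+ libraries had shares of 65.8%, 63.1% and 64.6%. With 5-FU the LGR5- libraries reached 73.2%, 89.3% and 93.6% and the LGR5+ libraries 84.3%, 91.9% and 94.8%. The untreated LGR5+ libraries lay close together and below every 5-FU library, and the untreated LGR5- libraries were spread from the lowest share to one above 5-FU LGR5- replicate 1. Between the 5-FU groups the shares overlapped, and within each of the 3 replicate numbers, which pair these libraries, the LGR5+ share was the higher one. Per kilobase of exon, mean levels in untreated LGR5- cells were 8.97 ± 7.38 CPM per kb for Lyz1 and 4.91 ± 2.50 CPM per kb for Lyz2 (SD, n = 3). In 5-FU-treated LGR5+ cells they were 5.93 ± 3.76 and 52.2 ± 6.01 CPM per kb.

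**Figure D2:**
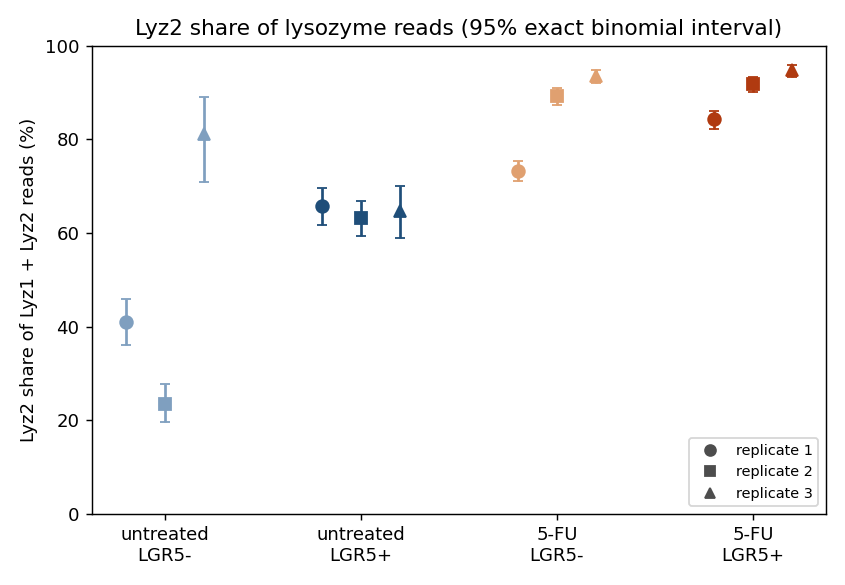
Share of Lyz2 in the summed reads of Lyz1 and Lyz2 (percent) in each library, with 95% exact binomial intervals for counting error. The untreated LGR5+ libraries sit at 63.1% to 65.8%, the 5-FU libraries at 73.2% to 94.8%, and the untreated LGR5- libraries range from 23.4% to 81.2%.

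Cd68 was the macrophage gene that rose with 5-FU in both populations. Untreated libraries held 98, 115 and 180 Cd68 reads when LGR5- and 103, 212 and 135 when LGR5+. Their 5-FU counterparts held 663, 283 and 413 (LGR5-) and 932, 443 and 621 (LGR5+). All 5-FU libraries lay above all untreated ones, and LGR5+ and LGR5- cells overlapped within each treatment. After 5-FU, Cd68 was higher in the LGR5+ library of each replicate number, a difference that did not pass with the number as a block. Means were 7.41 ± 2.24, 9.01 ± 3.63, 28.6 ± 11.3 and 37.7 ± 14.1 CPM (SD, n = 3) in untreated LGR5-, untreated LGR5+, 5-FU LGR5- and 5-FU LGR5+ cells. The log2 change was 2.06 (SE 0.37, edgeR quasi-likelihood test, Benjamini-Hochberg adjusted p = 0.00173) in LGR5+ cells and 1.95 (SE 0.37, edgeR adjusted p = 0.00326) in LGR5- cells. The change kept its call without the LGR5- libraries numbered 3, at 2.06 (edgeR adjusted p = 0.0069) and 2.18 (edgeR adjusted p = 0.0224). In the study's pathway lists, drawn up from these same libraries, Cd68 stands among macrophage markers in both 5-FU comparisons, so the direction is not independent evidence. Between the untreated populations, where Lyz2 was 3.07-fold apart, the Cd68 log2 difference between untreated LGR5+ and LGR5- cells was 0.28 (SE 0.37, edgeR adjusted p = 1).

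Stab1, which codes for stabilin-1, a scavenger receptor of macrophages and sinusoidal endothelium, was at trace level in untreated cells. The untreated LGR5- libraries held 2, 0 and 0 reads, and all 3 untreated LGR5+ libraries held 0. With 5-FU, counts were 12, 16 and 6 (LGR5-) and 19, 28 and 33 (LGR5+). The 4 groups thus fell into untreated libraries with at most 2 reads and 5-FU libraries with at least 6, the LGR5+ ones highest. Of all genes tested, 14.2% had every 5-FU LGR5+ library above every 5-FU LGR5- one, as Stab1 did. Stab1 had enough reads to be tested only through the 5-FU libraries where it is high, so its values are given as a description, with no test in LGR5- cells either. The fitted log2 difference there was 3.95 (SE 0.91). The ratio of the summed reads of the groups, scaled by their summed TMM-scaled depth, was 18.8. Its counting interval was 4.82 to 161, since it rests on 34 reads against 2. Both of those reads were in untreated LGR5- replicate 1. In LGR5+ cells the mean after 5-FU, 1.51 ± 0.43 CPM, was at least 8.21-fold higher than the limit that a count of 0 allows per library. Exons of Stab1 and the gene Nt5dc2 on the other strand overlap by 112 bases, and whether counting used strand is not given in the sources used here. The endothelial list of 10 genes, which shares the cell type known for Stab1, had 2 genes with enough reads to test, Kdr and Vwf, and neither passed in a 5-FU comparison. Oit3, the next by level and a gene of sinusoidal endothelium, was below the filter, with 0, 2 and 0 reads in untreated and 7, 5 and 12 reads in 5-FU LGR5+ libraries, and 1, 1 and 4 reads in untreated and 1, 0 and 2 reads in 5-FU LGR5- libraries. In LGR5+ cells Oit3 thus had the order of Stab1, and in LGR5- cells its groups overlapped. The summed level of the 10-gene endothelial list was 2.47 to 4.94 CPM in untreated and 3.28 to 6.42 CPM in 5-FU-treated libraries, with Stab2 and Lyve1 at no more than 2 reads and Clec4g at 0 in all.

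Cd14, the receptor that takes up lipopolysaccharide together with Tlr4 and Ly96, was well expressed in all groups. Its reads numbered 418, 564 and 456 (LGR5-) and 489, 850 and 634 (LGR5+) without 5-FU. Treated LGR5- libraries had 769, 474 and 470 reads, and treated LGR5+ libraries 1077, 628 and 790. Every pair of groups compared overlapped. After 5-FU, Cd14 was higher in the LGR5+ library of each replicate number. With the number as a block on only the 5-FU libraries, the log2 difference was 0.32 (SE 0.13, edgeR adjusted p = 0.146). The log2 change with 5-FU was 0.26 (SE 0.25, edgeR adjusted p = 0.547) in LGR5+ cells and 0.40 (SE 0.26, edgeR adjusted p = 0.336) in LGR5- cells. The 95% intervals were -0.29 to 0.80 and -0.15 to 0.94. Per kilobase of exon in untreated LGR5- cells, Cd14 stood at 15.7 ± 1.87 CPM per kb, above Cd68 at 5.90 ± 1.78 CPM per kb (SD, n = 3).

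The other 5 members had few reads in all groups. Ptprc, the CD45 phosphatase of all leukocytes, was counted 5, 3 and 13 times in the untreated LGR5- libraries, 4, 10 and 6 times in the untreated LGR5+ ones, 21, 7 and 9 times in 5-FU LGR5- ones and 36, 5 and 11 times in 5-FU LGR5+ ones. Its groups overlapped, and its log2 change with 5-FU was 1.28 (SE 0.76, edgeR adjusted p = 0.289) in LGR5+ cells and 0.94 (SE 0.77, edgeR adjusted p = 0.459) in LGR5- cells. Csf1r, the receptor for the growth factors Csf1 and Il34, had at most 11 reads in any library, Adgre1, the gene of the macrophage surface protein F4/80, at most 7, and Itgam, the CD11b integrin chain of myeloid cells, at most 4. Exons of Csf1r and Hmgxb3 overlap on opposite strands by 873 bases, and those of Itgam and Gm49368 on the same strand by 3450 bases, so their few reads are also uncertain in origin.

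Tyrobp, the signalling adaptor DAP12 of myeloid receptors, had its highest counts in LGR5- libraries. The untreated LGR5- libraries held 0, 6 and 28 Tyrobp reads and the untreated LGR5+ libraries 1, 1 and 2. With 5-FU, LGR5- libraries held 10, 10 and 20 reads and LGR5+ libraries 4, 2 and 3. The LGR5- libraries numbered 3 were the highest of each treatment, and after 5-FU all LGR5+ libraries lay below all LGR5- ones. The fitted LGR5+ against LGR5- log2 difference was -2.31 (SE 0.98) after 5-FU and -2.88 (SE 1.11) in untreated cells. Tyrobp had enough reads for the fit only through the LGR5- libraries, so these values are a description. Without the LGR5- libraries numbered 3 these values were -1.75 and -1.03. Adgre1 had the same order after 5-FU, with 6, 3 and 5 reads in LGR5- and 2, 0 and 0 reads in LGR5+ cells. Of all genes tested, 10.2% had every 5-FU-treated LGR5+ library below every LGR5- one, so such an order is common in this comparison. In the study's lists from these libraries, Adgre1 is among the genes of this comparison, and its order is not independent evidence.

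**Figure D3:**
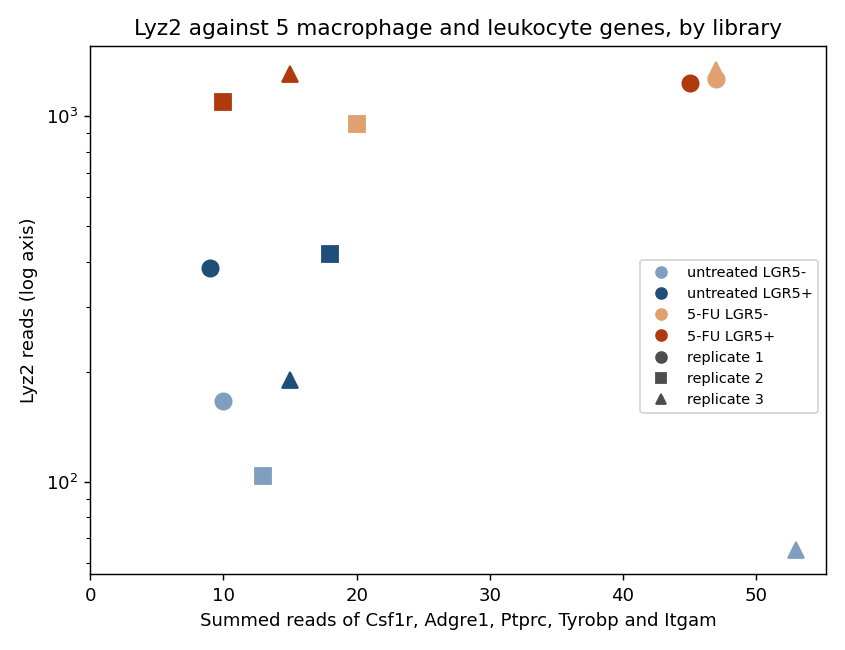
Lyz2 reads (log axis) against the summed reads of Csf1r, Adgre1, Ptprc, Tyrobp and Itgam (linear axis) in each of the 12 libraries, colored by group and shaped by replicate number. Cd68, Cd14 and Stab1 are not in the sum. At 10 to 20 summed reads, Lyz2 ranged from 104 to 1303 reads, and the library with most summed reads, untreated LGR5- replicate 3 with 53, had the fewest Lyz2 reads, 65.

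Set against these 5 genes, Lyz2 did not keep a fixed ratio. The members outside this sum, Cd68, Stab1, Cd14 and Lyz1, had a Pearson r with Lyz2 of 0.83, 0.82, 0.548 and 0.263. Untreated sums were 10, 13 and 53 reads (LGR5-) and 9, 18 and 15 reads (LGR5+). The 5-FU sums were 47, 20 and 47 (LGR5-) and 45, 10 and 15 (LGR5+). The LGR5- libraries numbered 3 held 53 and 47 of these reads, while Lyz2 was lowest of all in the first and highest of all in the second. Lyz2 reads per summed read ran from 1.23 in untreated LGR5- replicate 3 to 110 in 5-FU LGR5+ replicate 2. The latter library had 1098 Lyz2 reads beside 10 reads of the 5 genes, and untreated LGR5- replicate 1 had 166 Lyz2 reads beside the same 10.

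Across all comparisons, the members were counted against the share of all genes. Between untreated LGR5+ and LGR5- cells none of Lyz1, Cd68, Ptprc and Cd14 passed an edgeR adjusted p of 0.05, where 0% of all 16157 genes passed and 1.32% (214 genes) had an unadjusted p under 0.05. In 5-FU-treated cells none of these and Lyz2 passed, where 0% of all genes passed with edgeR and 13% (2095 genes) had an unadjusted p under 0.05. DESeq2 passed 82 genes there, and edgeR with the replicate number as a block on only the 5-FU libraries passed 451. With that block the Lyz2 difference was -0.19 (SE 0.15, edgeR adjusted p = 0.417), and no macrophage member passed. With 5-FU, Cd68 alone of the members open to a test rose in LGR5+ cells, where 9.66% of all genes rose, and in LGR5- cells, where 8.3% rose. Stab1 and Tyrobp are left out of these counts, since each reached the filter only through the group where it is high. The share of all genes with every 5-FU library above every untreated one was 22.3% in LGR5+ and 13.7% in LGR5- cells, and Lyz2, Cd68 and Stab1 had this order in both. The difference between the responses passed for none of Lyz1, Cd68, Ptprc and Cd14 and for 0% of all genes, while 1.57% (254 genes) had an unadjusted p under 0.05. Its size was 0.12 (SE 0.51, edgeR adjusted p = 1) for Cd68, beside -1.77 for Lyz2.

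**Figure D4:**
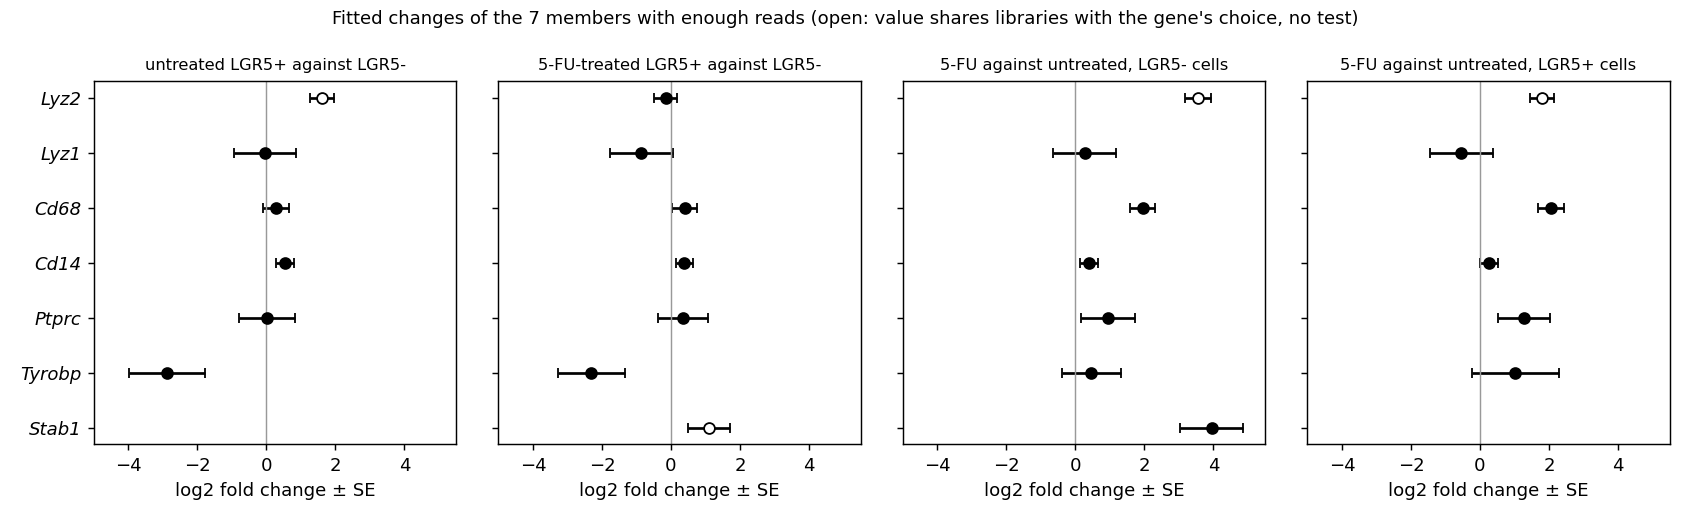
Fitted log2 fold changes with SE of the 7 members with enough reads, in 4 comparisons on 1 common linear axis. Open points mark comparisons that share libraries with the choice of the gene, and Stab1 is left out where a whole group had 0 reads. Stab1 and Tyrobp had enough reads only through the group where each is high, so their points are a description. Cd68 lies at 1.95 and 2.06 with 5-FU, Lyz2 at 3.56 and 1.79, and Lyz1 at 0.26 and -0.54.

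Genes restricted to macrophages gave few reads. Of 21 such genes, 5 had 0 reads in all 12 libraries, namely Trem2, Marco, Clec4f, Vsig4 and C5ar1, 9 never exceeded 3 reads and 16 never exceeded 10. The complement genes C1qa, C1qb and C1qc, made by tissue macrophages, summed to 0 to 22 reads per library, most in 5-FU LGR5- replicate 3. In LGR5+ cells the summed level of the list was 1.85 to 3.40 CPM untreated and 5.09 to 5.34 CPM with 5-FU, without overlap. In LGR5- cells it was 1.51, 1.48 and 5.44 CPM in untreated libraries 1, 2 and 3 and 2.93 to 7.63 CPM with 5-FU, where only untreated replicate 3 reached into the 5-FU range. The highest sum of each treatment was in the LGR5- library numbered 3. Of the 3 genes with enough reads, Cd163 is described below, and Aif1 and Folr2 did not pass with 5-FU in either population. Over all genes, 16% passed in LGR5+ and 15.4% in LGR5- cells. Cd163, a scavenger receptor that the study's lists also name, had 2, 3 and 23 reads in untreated LGR5+ libraries and 44, 48 and 47 with 5-FU. In LGR5- libraries it had 3, 2 and 12 reads untreated and 23, 14 and 17 with 5-FU. It reached the filter through its 5-FU libraries, so its fitted log2 differences of 2.22 (SE 0.73) and 1.80 (SE 0.78) are a description. Cd163 gave 139 reads of the list in 5-FU LGR5+ libraries. Without it, the list summed to 30, 35 and 34 reads in untreated and 51, 49 and 40 reads in 5-FU LGR5+ libraries, and to 22, 25 and 86 reads in untreated and 67, 36 and 87 reads in 5-FU LGR5- libraries. The part of macrophages left by the sort in the Lyz2, Cd68 and Stab1 values was not tested.

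Of 16 genes shared by leukocytes, 10 had enough reads, and besides Itgb2 none of them rose with 5-FU in either population. Over all genes, 9.66% rose in LGR5+ and 8.3% in LGR5- cells, shares that leave few of 10 genes to rise. Itgb2, the integrin chain that pairs with the product of Itgam, had 3 to 11 reads in untreated libraries and 9 to 80 in 5-FU-treated ones. It reached the filter through its 5-FU libraries, so its fitted log2 differences of 2.82 (SE 0.57) in LGR5+ and 2.44 (SE 0.61) in LGR5- cells are a description, and the study's list for LGR5+ cells holds it as well. The highest genes of this list by level were Lcp1, Irf8 and Cd37, none of which passed. The summed level was 77.1 to 139 CPM in untreated and 51.3 to 127 CPM in 5-FU-treated libraries.

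Ligands and partners of the members were also counted. Of 15 ligands, co-receptors and signal genes, 13 had enough reads, and besides Itgb2, described above, Csf1, Il34 and Lbp rose in each population with 5-FU, where 9.66% of all genes rose in LGR5+ and 8.3% in LGR5- cells. Csf1, a ligand of Csf1r, had 25 to 56 reads in untreated and 79 to 156 reads in 5-FU-treated libraries. It rose by 1.67 (SE 0.34, edgeR adjusted p = 0.00408) in LGR5+ and 1.44 (SE 0.34, edgeR adjusted p = 0.011) in LGR5- cells. Il34, the other ligand, rose by 0.93 (SE 0.21, edgeR adjusted p = 0.00718) and 0.87 (SE 0.21, edgeR adjusted p = 0.0114). Both ligands had at least 25 reads in every library, whereas Csf1r itself had 0 to 11. Lbp, which hands lipopolysaccharide to Cd14, rose by 0.73 (SE 0.20, edgeR adjusted p = 0.0215) and 0.68 (SE 0.20, edgeR adjusted p = 0.0331). Tlr4 and Ly96, the receptor pair that acts with Cd14, changed by 0.70 and 0.47 in LGR5+ cells and did not pass (edgeR adjusted p = 0.179 and 0.254). Irak1 and Myd88, signal genes downstream of Tlr4 and the highest of the list with Lbp, changed by 0.10 and 0.996 in LGR5+ cells (edgeR adjusted p = 0.714 and 0.0566) and by 0.03 and 0.53 in LGR5- cells (edgeR adjusted p = 0.916 and 0.319).

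Genes of the lysosome, the compartment of CD68, were counted beside all genes, and all 19 were tested. In LGR5+ cells 5 rose with 5-FU (Ctsd, Ctsb, Ctsl, Lamp1 and Grn) and 0 fell, where 16% of all genes passed in either direction. In LGR5- cells 1 rose (Ctsd) and 1 fell (Gla), where 15.4% of all genes passed. Ctsd, the protease cathepsin D, changed most among those named, by 2.45 (SE 0.29, edgeR adjusted p = 5.8e-05) in LGR5+ and 1.73 (SE 0.28, edgeR adjusted p = 0.00101) in LGR5- cells, close in size to Cd68. The median of the list was 0.30 and 0.11, beside -0.02 and -0.05 over all genes.

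Genes known from other cell types that make a lysozyme were counted as well, beside the 9.66% of all genes that rose with 5-FU in LGR5+ cells and the 8.3% in LGR5- cells. Of 14 alveolar type 2 genes, all tested, 3 rose in each population: Sftpd, Lamp3 and Slc34a2 in LGR5+ cells and Sftpd, Napsa and Chil1 in LGR5- cells. Sftpd, a surfactant collectin, rose by 2.69 (SE 0.28, edgeR adjusted p = 2.04e-05) and 2.48 (SE 0.28, edgeR adjusted p = 7.16e-05), while Sftpc changed by -1.03 and -1.26 and Etv5, a transcription factor of these cells, by -0.77 and -0.65 without passing. Of 12 neutrophil genes 6 had enough reads, of which S100a9 and Ly6g reached the filter through their 5-FU libraries and are not counted. Of the others, S100a8 and Ltf rose in LGR5+ cells and Ltf in LGR5- cells. The summed level of the neutrophil list was 15.0 to 37.4 CPM in untreated and 84.0 to 360 CPM in 5-FU-treated libraries. In every library Csf3r had 0 reads, Ngp and Camp at most 1, and Elane, Retnlg and Mmp8 at most 5. Other genes of the list had more. Ly6g had 2 to 8 reads in untreated and 13 to 27 in 5-FU-treated libraries, and S100a9 had 1 to 19 and 41 to 753. Over all libraries Cxcr2 had 5 to 28 reads and Mpo 8 to 18. Ltf, the iron-binding lactoferrin also secreted by epithelia, rose by 3.70 (SE 0.37, edgeR adjusted p = 1.51e-05) and 3.16 (SE 0.36, edgeR adjusted p = 7.96e-05). Of 9 Paneth cell genes 8 were tested: Mmp7, the protease that activates defensins, rose in both populations, by 4.31 (SE 0.52, edgeR adjusted p = 1e-04) and 3.86 (SE 0.51, edgeR adjusted p = 0.000291), and Defa21, Defa22 and Pla2g2a rose in LGR5- cells. Defa30, a defensin, changed by 0.70 and 1.11 without passing. Lyz1, the lysozyme known from Paneth cells, did not pass in either. Of 8 other genes of the lysozyme family, Lyg1 was the only 1 with enough reads. It had 0 to 7 reads in untreated and 9 to 37 reads in 5-FU-treated libraries, and since it reached the filter through the latter, its fitted log2 differences of 2.22 (SE 0.87) and 2.70 (SE 0.89) are a description. The next by mean level, Lyzl4 and Spaca3, stood at 0.19 and 0.071 CPM. Among other cell types, Lck of the 2 lymphocyte genes tested and Pdgfrb of the 2 fibroblast genes tested fell in both populations. None of the dendritic, mast cell or hepatocyte genes tested passed in either. Over all genes, 16% passed in either direction in LGR5+ cells and 15.4% in LGR5- cells. Of the 7 epithelial genes, 5 rose in LGR5+ cells (Cdh1, Krt8, Krt18, Krt19 and Cldn4), where 9.66% of all genes rose, and all of these but Cdh1 in LGR5- cells, where 8.3% rose. The other genes highest by mean level over the 12 libraries were Cd79b (9.61 CPM) and Cd79a (0.12 CPM) of lymphocytes, Zbtb46 (4.88 CPM), Xcr1 (0.31 CPM) and Flt3 (0.024 CPM) of dendritic cells, and Kit (13.99 CPM), Hdc (11.8 CPM) and Cma1 (0.15 CPM) of mast cells. For fibroblasts they were Dcn (40.9 CPM) and Pdgfra (0.34 CPM), and for hepatocytes Alb (0.86 CPM), Cyp2e1 (0.43 CPM) and Apoa1 (0.22 CPM). The part of these other cell types in the Lyz2 values was not tested.

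Over the 12 libraries, the gene with the pattern most like Lyz2 was Unc13d, an exocytosis factor of secretory granules, with a Pearson r of 0.95 on log2 CPM among 10803 genes with a mean of at least 5 CPM. The next were 9530053A07Rik (0.941), Ces2e (0.936), Exoc2 (0.932), Cd55 and Ly6a (0.931 each), and Tbc1d2, Btbd19, Faim2 and Ly6c1 (0.929 each). Genes of the macrophage-restricted list could not be among them, since the highest of that list, Cd163, had a mean of 1.16 CPM. Among the members, r with Lyz2 was 0.83 for Cd68, at rank 430, 0.82 for Stab1, 0.548 for Cd14, 0.456 for Ptprc, 0.263 for Lyz1 and 0.0642 for Tyrobp. These values are a description over 12 points that share their treatment groups.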

How the data were processed

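Per the labels and the study's methods, RNA of sorted cells went through SMARTer amplification and paired-end sequencing. The authors deposited 1 table of whole-number read counts per gene, without normalization. The submitters' processing notes name the build mm8 and the tools HISAT2, HISAT, TopHat2 and HTSeq, with no versions. Groups came from the sample titles. Of the identifiers, 46488 matched a symbol and 581 did not.

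Counts of all 12 libraries were filtered with filterByExpr (16157 genes kept), scaled by TMM and fitted on 4 group means with edgeR 4.0.16 in R 4.3.3 (glmQLFit robust, glmQLFTest). Adjusted p is by Benjamini-Hochberg over all genes tested, with a threshold of 0.05. CPM are TMM-scaled. DESeq2 1.42.0 was an alternative.

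The members, gene lists and tests were chosen with earlier results of these data known. All members were named. From other lists, the 3 genes highest by level were named, with those a count of 5 or fewer refers to. Other list genes were named after their values were seen. The 10 genes most like Lyz2 were taken by Pearson r of log2 CPM.

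Replicate numbers paired the 5-FU-treated LGR5+ and LGR5- libraries: deviations from group means correlated at 0.571, 0.217 and 0.304 for numbers 1, 2 and 3. Libraries of a group differed by more than sampling noise, so none was counted as a copy. A few genes of the lists are not reported here and were left out of the list counts.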

Additional observations from a re-analysis of the deposited data

How the results depend on the processing

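Lyz2 kept its direction under every alternative run in the untreated comparison and in both 5-FU comparisons. With 1 library left out it was 1.33 to 2.09 between untreated populations, and with 5-FU 3.27 to 4.03 in LGR5- and 1.52 to 2.03 in LGR5+ cells. Without both LGR5- libraries numbered 3 the LGR5- value was 3.05. In 5-FU-treated cells it stayed without a call, at -0.32 to 0.04 with 1 library left out. The Cd68 change passed under every alternative run. With at least 10 reads in every library Stab1, Ptprc and Tyrobp were not tested, and in a fit of only the LGR5- libraries Stab1 was not. Of the macrophage members that carry a test in the text, only Cd68 passed with 5-FU in these settings, as in the main fit. With no filter Csf1r, Adgre1 and Itgam were tested as well, and none passed (edgeR adjusted p from 0.415 to 1). No other member changed its call.

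The count of all genes called moved more. With 5-FU in LGR5+ cells it was 2590, against 4045 with only the libraries compared, 4448 without both LGR5- libraries numbered 3 (chosen after seeing the data), 1168 by the fold rule (a log2 fold over 1.5 in size and p under 0.05, unadjusted), and 1373 to 2488 with 1 library left out. In LGR5- cells it was 2489, against 1282, 1131 by the fold rule, and 1562 to 3418 with 1 library left out. Between 5-FU-treated populations it was 0, against 82 with DESeq2, 11 with no filter, 274 by the fold rule and 451 with the replicate block on only the 5-FU libraries (chosen after seeing the data). Between untreated populations it was 0, against 74 by the fold rule. The replicate block on all libraries gave 2967 and 2890 genes with 5-FU, and a Lyz2 difference of -0.16 in 5-FU-treated cells, and changed no member's call. Outside the 5-FU-treated comparison the numbers were not taken as pairs, since the lowest r of the 3 numbers was -0.119 between untreated populations, -0.168 between treatments in LGR5+ cells and 0.0546 in LGR5- cells, where the other two were 0.282 and 0.425. Scaling by library size alone moved the median of all genes to -0.10 in the LGR5+ comparison. Counts of at most 11 reads in Csf1r, 7 in Adgre1 and 4 in Itgam limit what could be seen of those genes.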
